A study of Mus musculus with 8 samples.

Results

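The region described here is the stretch of mouse chromosome 11 between the IkE120 enhancer cluster and the promoter of *Ikzf1*, as seen by 4C-seq from that promoter. Its members are the DpnII restriction fragments whose midpoints lie from 11485001 to 11568520 in mm9, that is between 15.0 and 98.5 kb upstream of the bait at 11583520. They were chosen by position alone, and 258 of the 295446 fragments listed for chromosome 11 qualified. The stretch holds the gene 4930512M02Rik, the greater part of Gm11999 and a single DNase I hypersensitive site (DHS) of the study, IkE25.

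*Ikzf1* encodes Ikaros, a zinc finger transcription factor needed for T and B lymphocyte development and mutated in leukemia. Distal enhancers act on such a gene across long stretches of chromatin. In 4C-seq, nuclei are crosslinked, cut with DpnII and religated, so that DNA close in space to a bait is joined to it. A cut with Csp6I, circularization and PCR from the bait then allow its partners to be counted. Contacts fall with linear distance from any bait, so reads in the stretch between an enhancer and its promoter include this general proximity.

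Of the 8 libraries of the series, 6 were 4C-seq from the *Ikzf1* promoter and 2 were H3K27ac ChIP-seq, with 1 library per condition. DN3 cells were CD4-negative, CD8-negative, CD25-positive thymocytes sorted from wild-type C57BL/6 mice of 4 to 5 weeks of age. Their CD44 level is low in the sample labels but given as positive in the study's text, and the number of mice is not given in the sources used here. ES cells were the J1 embryonic stem line, taken by the study as not expressing *Ikzf1* and freed of feeder cells before use. Before digestion, ES nuclei received a weaker SDS treatment, and a cooler one, than DN3 and P5424 nuclei, so cell type and nuclear preparation cannot be told apart in the contrast of DN3 with ES cells. P5424 is a mouse line resembling T cell precursors, used as wt cells and as ΔIkE120 cells, in which CRISPR/Cas9 removed IkE120 from both alleles. The ΔIkE120 cells were 1 clone, so a difference from wt cells can belong to the clone as well as to the deletion. Both were studied unstimulated (DMSO by the headers of the count files) and after treatment with PMA (20 µg/ml) and ionomycin (0.5 µg/ml) for 6 h, which mimic signals of T cell activation.

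The deposited values were raw read counts per fragment. The totals on chromosome 11 were 1788106 reads in DN3, 3448437 in ES, 2025891 in unstimulated wt, 1756688 in stimulated wt, 3943018 in unstimulated ΔIkE120 and 2721320 in stimulated ΔIkE120 cells. The fragments with any read numbered 7631, 10312, 6577, 5550, 6894 and 7387, in the same order. The stimulated wt library was thus the shallowest and covered the fewest fragments, while ES covered the most. Counts were compared as shares of the reads lying at least 15 kb from the bait, also scaled to 1000000 of them and then called RPM. There were 1525273 such reads in DN3, 3095991 in ES, 1742231 in unstimulated wt, 1526128 in stimulated wt, 3342473 in unstimulated ΔIkE120 and 2178345 in stimulated ΔIkE120 cells. With no second library of any condition, differences have no replicate check and no test was made. The 95% intervals are exact (Clopper-Pearson) for shares, and for ratios they combine the bounds of both shares. They cover counting error only, as PCR copies are not independent molecules.

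Across the whole interval of 83.5 kb, 157051 reads were counted in DN3, 221599 in ES, 183857 in unstimulated wt, 108996 in stimulated wt, 357548 in unstimulated ΔIkE120 and 193673 in stimulated ΔIkE120 cells. As shares these were 10.3% (interval 10.2% to 10.3%), 7.16% (7.13% to 7.19%), 10.6% (10.5% to 10.6%), 7.14% (7.10% to 7.18%), 10.7% (10.7% to 10.7%) and 8.89% (8.85% to 8.93%), in the same order. DN3 cells and both unstimulated P5424 libraries lay close together, and ES and stimulated wt cells shared the lowest level, with stimulated ΔIkE120 cells in between. This grouping depended on the scaling, since quantile normalization with a running mean gave 898, 837, 851, 689, 898 and 819, with stimulated wt cells alone at a low level. Reads fell on 154, 152, 154, 142, 160 and 151 of the 258 fragments. They were concentrated on few of them, the 10 highest fragments of each library holding from 32.5% of its interval reads in stimulated ΔIkE120 to 46.9% in unstimulated wt cells.

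The reads were unevenly spread over the annotated genes. 4930512M02Rik is annotated as protein coding on the minus strand at chr11:11489226-11527838 (mm9, GENCODE M1), and 131 fragments belong to it. It received 43157 reads in DN3, 70375 in ES, 42234 in unstimulated wt, 36775 in stimulated wt, 115243 in unstimulated ΔIkE120 and 52278 in stimulated ΔIkE120 cells. This amounted to between 23.0% (unstimulated wt) and 33.7% (stimulated wt) of the interval's reads. Of reads at least 15 kb from the bait, the gene held 2.83%, 2.27%, 2.42%, 2.41%, 3.45% and 2.40%. Unstimulated ΔIkE120 cells were highest and the other libraries lay within a narrow range. After quantile normalization with a running mean the values were 416, 446, 328, 364, 459 and 354, with ES cells close to unstimulated ΔIkE120 cells.

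Gm11999 is annotated as a long intergenic noncoding RNA on the minus strand at chr11:11542206-11585403, starting 1883 bases from the bait on the far side of it. Its part inside the interval spans 26.3 kb with 67 fragments. Reads on it numbered 91590 in DN3, 127218 in ES, 115572 in unstimulated wt, 58584 in stimulated wt, 205953 in unstimulated ΔIkE120 and 117381 in stimulated ΔIkE120 cells. These were from 53.7% (stimulated wt) to 62.9% (unstimulated wt) of the interval's reads. Per kb, the Gm11999 part held 2282, 1562, 2521, 1459, 2342 and 2048 RPM, against 733, 589, 628, 624, 893 and 622 RPM for 4930512M02Rik. The part of Gm11999, which lies nearer to the bait, was the denser of both in each of the 6 libraries.

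The middle gap between both genes, chr11:11527839-11542205, held 50 fragments and 17064 reads in DN3, 19624 in ES, 25071 in unstimulated wt, 12278 in stimulated wt, 31246 in unstimulated ΔIkE120 and 21363 in stimulated ΔIkE120 cells. Its density of 779, 441, 1002, 560, 651 and 683 RPM per kb was above that of 4930512M02Rik in unstimulated wt and stimulated ΔIkE120 cells and below it in ES, stimulated wt and unstimulated ΔIkE120 cells. In DN3 cells the direction depended on whether fragments without a single-copy end were counted. Its density was highest in unstimulated wt cells. In that library 36.8% of the gap's reads lay on the fragment at 11536113, which had 2741, 2128, 9221, 3178, 2574 and 4016 reads in the 6 libraries. The distal gap, chr11:11485001-11489225, held 10 fragments and 5240, 4382, 980, 1359, 5106 and 2651 reads. DN3 cells were highest there at 0.344% of reads, and unstimulated wt cells lowest at 0.0562%. After quantile normalization with a running mean, DN3 cells were highest at 1419 and ES cells lowest at 639, with unstimulated wt cells at 915.

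IkE25 is a DHS of double-positive thymocytes at chr11:11557248-11557441, within an intron of Gm11999. The study's reporter assay in P5424 cells classed it as a weak enhancer. The window reaching 10 kb to either side of its centre, 11547344 to 11567344, held 48 fragments, and it lies wholly inside Gm11999. The window received 74586 reads in DN3, 100574 in ES, 93444 in unstimulated wt, 44355 in stimulated wt, 157093 in unstimulated ΔIkE120 and 92533 in stimulated ΔIkE120 cells. The shares were 4.89% (4.86% to 4.92%), 3.25% (3.23% to 3.27%), 5.36% (5.33% to 5.40%), 2.91% (2.88% to 2.93%), 4.70% (4.68% to 4.72%) and 4.25% (4.22% to 4.27%), again with unstimulated wt cells at the top and stimulated wt cells at the bottom. After quantile normalization with a running mean, DN3 cells were at the top at 2253, above unstimulated wt cells at 2096. Stimulated wt cells were lowest there too, at 1556. The window took from 40.7% (stimulated wt) to 50.8% (unstimulated wt) of the interval's reads. Its density was 2445, 1624, 2682, 1453, 2350 and 2124 RPM per kb. The 18 Gm11999 fragments on the distal side of the window were about as dense, with 2159, 1665, 2464, 1807, 2821 and 2209 RPM per kb. They were denser than the window in stimulated wt and unstimulated ΔIkE120 cells and less dense in DN3 and unstimulated wt cells, while in ES and stimulated ΔIkE120 cells the direction turned when reads were divided by the summed length of the fragments. On the bait side, the 3.52 kb from 11565001 to 11568520, in part within the window, held 666, 350.4, 593, 519.9, 548 and 555 RPM per kb, less than the window in every library.

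The sequence of the IkE25 DHS is shown because the fragment that carries it differed so much from its neighbour. It is 194 bases long and holds no DpnII and no Csp6I site (mm9, plus strand, chr11:11557248-11557441).
IkE25: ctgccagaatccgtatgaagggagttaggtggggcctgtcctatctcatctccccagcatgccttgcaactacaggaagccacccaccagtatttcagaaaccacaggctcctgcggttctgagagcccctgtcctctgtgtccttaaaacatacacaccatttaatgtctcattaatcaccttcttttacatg
The DHS lies wholly on the fragment at chr11:11557092-11557679, which had 385 reads in DN3, 557 in ES, 115 in unstimulated wt, 272 in stimulated wt, 552 in unstimulated ΔIkE120 and 184 in stimulated ΔIkE120 cells. By mean RPM it ranked 40 among the 48 fragments of the window. The next fragment towards the bait, chr11:11557680-11557812, starts 238 bases after the DHS, also within the Gm11999 intron. It had 14246, 13555, 22195, 6692, 26845 and 10818 reads in the same order, from 24.3 (ES) to 193 (unstimulated wt) times those of the DHS fragment. The neighbour on the distal side, chr11:11556967-11557091, had 407, 409, 146, 200, 591 and 1091 reads. In read counts, the fragment that holds IkE25 was therefore among the low ones of its window, and the highest fragment of the window lay beside it. The DHS fragment is 588 bases long with 1 Csp6I site, and the neighbour towards the bait is 133 bases long without such a site. Whether the difference between these adjoining fragments reflects contact with the bait was not tested, so the counts do not show that IkE25 itself was poorly contacted.

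This neighbour at chr11:11557680-11557812 was the highest fragment of the interval in all 6 libraries. Among all fragments at least 15 kb from the bait, it ranked 1 in DN3, ES, unstimulated wt, unstimulated ΔIkE120 and stimulated ΔIkE120 cells and 8 in stimulated wt cells. It held 0.934% (0.919% to 0.949%) of such reads in DN3, 0.438% (0.430% to 0.445%) in ES, 1.27% (1.26% to 1.29%) in unstimulated wt, 0.438% (0.428% to 0.449%) in stimulated wt, 0.803% (0.794% to 0.813%) in unstimulated ΔIkE120 and 0.497% (0.487% to 0.506%) in stimulated ΔIkE120 cells. The share was lowest in ES and in both stimulated libraries. The fragment is 133 bases long and has no Csp6I site, and the first 30 bases of either end occur once in the genome. Its sequence is given with the DpnII sites that bound it in capitals, the closing site included (mm9, plus strand, chr11:11557680-11557816).
Highest fragment: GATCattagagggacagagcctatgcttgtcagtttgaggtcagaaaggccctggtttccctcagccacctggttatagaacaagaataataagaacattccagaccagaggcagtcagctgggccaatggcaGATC

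The highest fragment spanned 2.91-fold in RPM between libraries, and those ranked next by mean RPM from 2.62-fold to 12.0-fold. The fragment at chr11:11547477-11548056, in an intron of Gm11999, had 3681 reads in DN3, 8461 in ES, 13077 in unstimulated wt, 1744 in stimulated wt, 13621 in unstimulated ΔIkE120 and 5675 in stimulated ΔIkE120 cells. In RPM this was 2413, 2733, 7506, 1143, 4075 and 2605, so unstimulated wt cells were highest and stimulated wt cells lowest, 6.57-fold apart. An intronic fragment of 4930512M02Rik, chr11:11525905-11526470, had 4020, 8646, 10116, 3503, 15550 and 3591 reads. Here too both unstimulated P5424 libraries were the highest in RPM, at 5806 and 4652, and the other libraries lay between 1648 and 2793. The Gm11999 intron fragment at chr11:11549970-11550408 had 5491, 8213, 3953, 2098, 10147 and 5998 reads, and was highest in DN3 cells at 3600.0 RPM and lowest in stimulated wt cells at 1375 RPM. The Gm11999 intron fragment at chr11:11555912-11556290 had 4286, 5482, 4528, 908, 8904 and 6402 reads. Stimulated wt cells had 595 RPM on it, and all others 1771 RPM or more.

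The fragment over the last exon of 4930512M02Rik, chr11:11489074-11489740, departed from this order. It had 6176 reads in DN3, 2676 in ES, 678 in unstimulated wt, 3996 in stimulated wt, 15649 in unstimulated ΔIkE120 and 3182 in stimulated ΔIkE120 cells. DN3 and unstimulated ΔIkE120 cells were highest at 4049 and 4682 RPM, and unstimulated wt cells lowest at 389 RPM, 12.0-fold under unstimulated ΔIkE120 cells. Such spread was usual for single fragments. Among the 135 fragments with reads in all 6 libraries, the highest RPM exceeded the lowest by a median of 6.41-fold, 48 fragments exceeded 10-fold and 2 stayed under 2-fold. The steadiest fragment, at 11539928 in the middle gap and singled out after its values were seen, had 882, 2118, 1102, 838, 1838 and 1238 reads. Between pairs of libraries, Spearman's rho over the 164 fragments with any read ran from 0.62 (ES with stimulated ΔIkE120) to 0.80 (DN3 with unstimulated ΔIkE120). Within a pair, the points share the bait, the decay with distance and the length and sequence of each fragment.

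Many fragments had no reads in any library. They numbered 94 of the 258, or 36.4%, against 59 of the 900 other fragments 15 to 250 kb from the bait, or 6.56%. Of the 94, 69 lay in 4930512M02Rik, 24 in the middle gap and 1 in the distal gap, and none was in the Gm11999 part. A count of 0 allows up to 3 counted reads, or from 0.898 RPM in unstimulated ΔIkE120 to 1.97 RPM in DN3 cells. This is a bound on counted reads and not on contact, since whether reads could be assigned to these fragments was not tested.

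The empty fragments differed in sequence from the covered ones. Of the 94, 83 had no end whose first 30 bases occur once in the mm9 genome, against 3 of the 135 fragments with reads in all 6 libraries. With the first 50 bases of each end, these counts were 70 of 94 and 1 of 135. In fragments shorter than the length counted, the bases ran on into neighbouring sequence of the genome. The read length is not given in the sources used here, so both lengths are shown, and the part of repeated sequence in the missing reads was not tested. Other features were closer, since 42.6% of the empty and 42.2% of the fully covered fragments held a Csp6I site, and their median GC content was 39.9% and 39.7%. Empty fragments were shorter, with a median of 148.5 bases against 315.

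The longest empty run had 35 fragments in a row, chr11:11511715-11519445, inside an intron of 4930512M02Rik. Of these, 34 had no single-copy end at 30 bases. Further runs of 17 and 5 empty fragments lay in introns of the gene at chr11:11500560-11503839 and chr11:11494007-11495238, and runs of 8 and 7 in the middle gap at chr11:11527789-11530351 and chr11:11530963-11531913. The first of the gap's runs opens with the fragment that holds the annotated start of 4930512M02Rik at 11527838, the only gene start of the interval. This fragment, chr11:11527789-11527912, had 0 reads in all 6 libraries, and its ends occur 13 and 6492 times at 30 bases. Another fragment of the middle gap without a single-copy end, at 11533199, had 1122 reads in DN3, 719 in ES, 293 in unstimulated wt, 723 in stimulated wt, 1283 in unstimulated ΔIkE120 and 1054 in stimulated ΔIkE120 cells. The ends of the fragment with the gene start are shown because no other fragment holds that start. The DpnII site is in capitals, with the left end on the plus strand and the right end on the minus strand (mm9, chr11:11527789-11527912).
Left end: GATCtggaaccatagatacgagcatcagca
Right end: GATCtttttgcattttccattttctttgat

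The denser signal over Gm11999 was also seen when fragments without a single-copy end at 50 bases were left out. Per kb of the remaining 67 fragments, the Gm11999 part held 2258 RPM in DN3, 1545 in ES, 2494 in unstimulated wt, 1443 in stimulated wt, 2317 in unstimulated ΔIkE120 and 2026 in stimulated ΔIkE120 cells. The 75 remaining fragments of 4930512M02Rik held 997, 801, 854, 849, 1215 and 846 RPM per kb. Gm11999 thus stayed above 4930512M02Rik in each library, at smaller ratios.

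DN3 thymocytes were compared with ES cells to set a cell type that expresses *Ikzf1* against one that does not. The interval took the larger share in DN3 cells, at a log2 ratio of 0.52 (0.51 to 0.54), and the IkE25 window at 0.59 (0.57 to 0.61). The ratio was 0.55 for the Gm11999 part, 0.82 for the middle gap and 1.28 for the distal gap. For 4930512M02Rik it was 0.32, and after quantile normalization with a running mean it was -0.10. The same change of scaling took the interval to 0.10, the middle gap to 0.34 and the IkE25 window to 0.16, and the 18 Gm11999 fragments distal to the window from 0.37 to -0.30. Of 158 fragments with reads in either library, 106 were higher in DN3, or 67.1%, close to 62.6% of the 982 such fragments 15 to 250 kb from the bait.

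For single fragments, a call meant at least 2-fold apart after adding 10 RPM, among fragments with a mean of at least 100 RPM in the pair. With DN3 and ES cells, 107 of the 258 fragments passed this filter, and 33 were higher in DN3 (30.8%, background 39.2%) and 10 lower (9.35%, background 15.1%). The background is the share called among all filtered fragments 15 to 250 kb from the bait, here 623. Both shares lay under it. With quantile normalization the split was 42 higher (39.3%, background 40.7%) and 16 lower (15.0%, background 15.3%), near the background in both directions. A share near the background is not a result about the members. Fragments passing the filter are not all members, in this and in the contrasts below. In the IkE25 window 15 of 40 filtered fragments were higher in DN3 and 2 lower, beside the same background. The fragment at 11488493 in the distal gap had 971 reads in DN3, 18 in ES, 34 in unstimulated wt, 0 in stimulated wt, 751 in unstimulated ΔIkE120 and 445 in stimulated ΔIkE120 cells. At 11493993, in an intron of 4930512M02Rik, the counts were 553, 0, 0, 0, 921 and 858, at least 374-fold higher in DN3 than in ES cells. This fragment is 26 bases long, so the bases counted from its ends run past it. Counted in this way, it had no single-copy end at 30 bases and 1 at 50. In the other direction, the 4930512M02Rik intron fragment at 11511140 had 28, 5002, 12, 0, 427 and 0 reads, most of them in ES cells. The fragment at 11491263 in the same gene had 61, 2283, 190, 12, 3 and 1687 reads, so that ES and stimulated ΔIkE120 cells stood apart from the others.

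The deletion of IkE120 was examined in both states of P5424 cells. In unstimulated cells the shares of the interval were nearly equal, at a log2 ratio of ΔIkE120 to wt of 0.02 (0.01 to 0.03), which turned to -0.05 with reads within 1 Mb as denominator. Sections differed. The ratio was 1.44 in the distal gap and 0.51 in 4930512M02Rik, but -0.62 in the middle gap, -0.11 in the Gm11999 part and -0.19 (-0.21 to -0.17) in the IkE25 window. Quantile normalization with a running mean took the distal gap to 0.50, the middle gap to -0.37 and the IkE25 window to -0.04. Without the 5 highest fragments of the window, its ratio was 0.14, and without the fragment at 11536113 that of the middle gap was -0.08. Of the 115 filtered fragments 46 were higher in ΔIkE120 cells (40.0%, background 41.7%) and 16 lower (13.9%, background 14.7%), close to the background of 597 fragments in both directions. Quantile normalization moved the median log2 ratio of this background from 0.58 to 0.43, and that of the stimulated cells below from 0.31 to 0.44. By section, 19 of 37 filtered fragments were higher and 5 lower in 4930512M02Rik, 9 of 20 higher and 4 lower in the middle gap, and 16 of 55 higher and 7 lower in the Gm11999 part, 14 and 6 of these in the IkE25 window. The background has the same excess of higher fragments, so these splits are not a result about the sections.

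In this contrast, 2 of the 4 named fragments had no reads in unstimulated wt cells. The middle gap fragment at 11530386 had 95 reads in DN3, 0 in ES, 0 in unstimulated wt, 311 in stimulated wt, 2242 in unstimulated ΔIkE120 and 1607 in stimulated ΔIkE120 cells, at least 389.5-fold higher in ΔIkE120 than in unstimulated wt cells. The 4930512M02Rik intron fragment at 11503890 had 195, 1187, 0, 0, 1228 and 0 reads. Lower in ΔIkE120 cells were the middle gap fragment at 11535803, with 0, 0, 535, 0, 3 and 524 reads, and the 4930512M02Rik intron fragment at 11491182, with 201, 14, 1246, 12, 58 and 153 reads. The former is 17 bases long and had reads in 3 of the libraries.

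In stimulated cells, the interval's share was larger in ΔIkE120 than in wt cells, at a log2 ratio of 0.32 (0.30 to 0.33). The IkE25 window stood at 0.55 (0.53 to 0.57), the Gm11999 part at 0.49, the middle gap at 0.29 and the distal gap at 0.45. For the distal gap, quantile normalization with a running mean gave -0.11. 4930512M02Rik did not differ beyond counting error, at -0.01 (-0.03 to 0.02), but reads within 1 Mb as denominator gave -0.18. The same denominator took the interval to 0.14, the middle gap to 0.11 and the distal gap to 0.28. Of 114 filtered fragments, 40 were higher in ΔIkE120 cells (35.1%, background 32.7%) and 16 lower (14.0%, background 18.0%), against 617 fragments in the background.

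The IkE25 window held fragments of both directions in stimulated cells. Of its 42 filtered fragments, 16 were higher in ΔIkE120 cells and 5 lower, beside a background of 32.7% and 18.0%. The Gm11999 intron fragment at 11548185 had 729 reads in DN3, 1048 in ES, 1646 in unstimulated wt, 0 in stimulated wt, 698 in unstimulated ΔIkE120 and 961 in stimulated ΔIkE120 cells, at least 224-fold higher in ΔIkE120 than in stimulated wt cells. The 4930512M02Rik fragment at 11491263 was 98.5-fold higher. At 11558473, within the IkE25 window, the counts were 3816, 5051, 452, 3578, 750 and 7, and stimulated ΔIkE120 cells were 729.6-fold under stimulated wt cells. The 4930512M02Rik intron fragment at 11510496 had 1176, 3653, 948, 2770, 12831 and 76 reads, 52.0-fold lower in stimulated ΔIkE120 than in stimulated wt cells.

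Stimulation with PMA and ionomycin was compared within each genotype, using the same libraries as the comparisons of genotype. In wt cells the interval's share was smaller after stimulation, at a log2 ratio of -0.56 (-0.58 to -0.55). The ratio was -0.88 (-0.91 to -0.86) in the IkE25 window, -0.79 in the Gm11999 part and -0.84 in the middle gap. It was -0.01 (-0.04 to 0.02) in 4930512M02Rik, but 0.15 after quantile normalization with a running mean and 0.23 with reads within 1 Mb as denominator. In the distal gap it was 0.66, and 0.30 after quantile normalization. The latter also took the interval to -0.31 and the IkE25 window to -0.43, and the 1 Mb denominator took the interval to -0.32. Without their 5 highest fragments, the interval stood at -0.37 and the IkE25 window at -0.33. Of 101 filtered fragments, 31 were higher after stimulation (30.7%, background 32.9%) and 33 lower (32.7%, background 22.7%), against 541 fragments in the background. With quantile normalization the split was 18 higher (16.5%, background 23.5%) and 37 lower (33.9%, background 28.5%). The median log2 ratio of filtered fragments was -0.18 in the interval and 0.18 in the background, and -0.49 and -0.08 after quantile normalization. The median of the interval thus lay below that of the background, which includes its fragments, under both scalings. This was not shared by all sections, as the ratios of 4930512M02Rik and the distal gap above show.

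In wt cells 18 of 54 filtered fragments of the Gm11999 part were lower and 12 higher, in 4930512M02Rik 9 of 30 were lower and 14 higher, and in the middle gap 6 of 14 were lower and 4 higher, beside a background of 22.7% lower and 32.9% higher. Besides 11548185, with its 1646 reads before and 0 after stimulation, the 4930512M02Rik intron fragment at 11491362 had 991 reads in DN3, 1908 in ES, 815 in unstimulated wt, 0 in stimulated wt, 1734 in unstimulated ΔIkE120 and 12 in stimulated ΔIkE120 cells. It was at least 238-fold lower in stimulated wt than in unstimulated wt cells. The Gm11999 intron fragment at 11546673 went the other way, with 1361, 5697, 2, 812, 520 and 951 reads.

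In ΔIkE120 cells the interval's share after stimulation was also smaller, at a log2 ratio of -0.27 (-0.28 to -0.26). The ratio was -0.52 in 4930512M02Rik, -0.33 in the distal gap, -0.19 in the Gm11999 part and -0.15 (-0.16 to -0.13) in the IkE25 window. The IkE25 ratio came to -0.02 after quantile normalization with a running mean, to -0.01 with reads within 1 Mb as denominator and to -0.02 without the 5 highest fragments, and the interval to -0.13 under each of these. With the 1 Mb denominator the distal gap stood at -0.20. In the middle gap it was 0.07, with 0.20 from the 1 Mb denominator and -0.02 after quantile normalization, and -0.11 without the fragment at 11536113. Of 120 filtered fragments, 24 were higher (20.0%, background 19.9%) and 32 lower (26.7%, background 21.8%), against 642 fragments in the background. The fragment at 11491263 went from 3 to 1687 reads and the Gm11999 intron fragment at 11542843 from 11 to 935, the latter 130.4-fold in RPM. The other libraries had 237, 424, 1 and 2 reads on 11542843, in DN3, ES, unstimulated wt and stimulated wt cells. The fragment at 11510496 was 110.0-fold lower, and 11503890, with 1228 reads before and 0 after, at least 267-fold lower.

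The interval was set beside its mirror image downstream of the bait, 11598520 to 11682039, which covers most of the *Ikzf1* gene body at the same distances. The mirror interval had 176 fragments and took 16.2% of the reads in DN3, 9.20% in ES, 11.7% in unstimulated wt, 10.9% in stimulated wt, 13.8% in unstimulated ΔIkE120 and 11.8% in stimulated ΔIkE120 cells. The upstream interval held 0.634, 0.778, 0.899, 0.658, 0.774 and 0.756 times as many reads as its mirror, fewer in every library. Per kb of fragments with a single-copy end at 50 bases the ratios were 0.766, 0.943, 1.09, 0.795, 0.936 and 0.914, which puts the upstream side above its mirror in unstimulated wt cells. Only 1 of the mirror's 176 fragments had no reads in any library. In steps of 10 kb, the section from 18.5 to 28.5 kb, which holds IkE25, was the only one above its mirror in all 6 libraries. Its ratio to the mirror was 1.71, 1.03, 1.80, 1.02, 1.59 and 1.03. Without the highest fragment, 11557745, a setting chosen after seeing the data, the ratio was 1.16, 0.720, 0.993, 0.783, 1.12 and 0.787, and without the highest fragment of either side it was 1.40, 0.865, 1.37, 0.909, 1.24 and 0.942. In ES and both stimulated libraries the excess was thus lost in either setting. In unstimulated wt cells it was lost only in the setting that left out 11557745 alone. The next section, from 28.5 to 38.5 kb, was at 1.25, 2.02, 1.83, 1.37 and 1.44 times its mirror in DN3, ES, unstimulated wt, unstimulated ΔIkE120 and stimulated ΔIkE120 cells, but not in stimulated wt cells, at 0.882. The section from 38.5 to 48.5 kb was above its mirror in unstimulated wt cells, at 1.11, and that from 58.5 to 68.5 kb in ES, stimulated wt and unstimulated ΔIkE120 cells, at 1.47, 1.16 and 1.06.

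The upstream DHS interval, 11406270 to 11469761, lies farther from the bait and includes IkE120. Per kb, the interval between it and the promoter was 0.511 times as dense in DN3, 0.932 in ES, 0.507 in unstimulated wt, 0.402 in stimulated wt, 0.530 in unstimulated ΔIkE120 and 0.475 in stimulated ΔIkE120 cells. On fragments with a single-copy end at 50 bases these ratios were 0.598, 1.09, 0.593, 0.468, 0.622 and 0.555. The nearer stretch was thus the less dense in the 5 libraries of T lineage cells, while in ES cells the direction depended on which fragments were counted. The log2 ratio of DN3 to ES cells was 1.39 in the upstream DHS interval and 0.82 in the mirror interval, against 0.52 here.

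H3K27ac, an acetylation of histone H3 found at active enhancers and promoters, was available as peaks called separately in 1 wt and 1 ΔIkE120 library of P5424 cells. Whether these cells were stimulated is not given in the sources used here. The peaks are in GRCm38 and were matched to genes by RefSeq annotation of that build. 4930512M02Rik held 2 peaks in wt cells, covering 512 bases, at chr11:11623883-11624179 with a fold enrichment of 3.58 and at chr11:11624387-11624601 with 3.17. It held 0 peaks in ΔIkE120 cells, which says only that none passed the authors' threshold. Between both genes there was 1 peak in either library, covering 837 bases in wt and 211 in ΔIkE120 cells, with fold enrichments of 3.35 and 3.04. Gm11999, taken as a whole, had 5 peaks in each library, covering 4500 bases in wt and 3835 in ΔIkE120 cells. Their fold enrichments, in order of position, were 2.32, 2.96, 3.19, 2.88 and 2.18 in wt cells. In ΔIkE120 cells they were 2.59, 3.18, 3.38, 4.24 and 2.45. The last of these peaks, chr11:11684818-11687149 in wt and chr11:11684903-11687027 in ΔIkE120 cells, overlaps the start of *Ikzf1*. Covered lengths depend on how much was called in each library, so their difference was not tested.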

How the data were processed

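For 4C-seq, the authors removed the bait sequence, mapped reads to mm9 with Bowtie (version 1.0.0 in the submitters' notes) and deposited read counts per DpnII fragment without normalization. The deposited ChIP-seq peaks, in GRCm38, carry a score, the -log10 p-value and q-value and a fold enrichment from the authors, whose notes name Bowtie2 2.3.4.3 and MACS2 2.1.1. Coordinates were not converted between builds. The 258 members and the lists were chosen with earlier results of these data known. Fragments belonged to a section by their midpoint, and 2 fragments beside the bait, missing from some libraries, were dropped. All 1158 fragments 15 to 250 kb from the bait matched the mm9 sequence, which also gave lengths, sites and copy numbers of the ends. These copy numbers replaced a planned share of repeats, since the sequence used was not masked, and were chosen after seeing the data. Fragments named by rule were the 6 highest by mean RPM, the extreme 2 called per direction and contrast, the IkE25 fragment with its neighbours and those holding a gene start. Outside these rules, the fragments that overlap exons and those at 11536113, 11539928 and 11533199 were also named. Where a library had 0 reads, folds were computed against 3 reads. The code was tested on simulated data. It ran under scipy 1.17.1, pandas 2.3.3, numpy 2.4.6 and Python 3.11.15. Alternatives tried were quantile normalization, reads within 1 Mb as denominator, omission of the 5 highest fragments, covered fragments in place of reads, a 5-kb window, a pseudocount of 100 RPM and no filter.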

Additional observations from a re-analysis of the deposited data

Results flagged for a closer look

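In the P5424 cells, log2 ratios of ΔIkE120 over wt were compared between unstimulated and stimulated cells, and those of stimulation between wt and ΔIkE120 cells. Pairs are given here that had opposite signs with intervals for counting error that left out 0. Among the interval and its named sections there were 5. In the distal gap, stimulation gave 0.66 in wt and -0.33 in ΔIkE120 cells, a difference of -0.99. In the middle gap, ΔIkE120 over wt gave -0.62 unstimulated and 0.29 stimulated, a difference of 0.91. By number, 15 of its fragments were higher and 10 lower in ΔIkE120 cells unstimulated, and 17 and 5 stimulated. The same 4 libraries gave -0.84 in wt and 0.07 in ΔIkE120 cells for stimulation in the middle gap, again 0.91 apart by construction. This pair had the same sign after quantile normalization with a running mean, at -0.67 and -0.016, and without the fragment at 11536113, at -0.61 and -0.11. In the IkE25 window, ΔIkE120 over wt gave -0.19 unstimulated and 0.55 stimulated, a difference of 0.74. The Gm11999 part, which includes this window, gave -0.11 and 0.49, a difference of 0.60. By number, 42 fragments of this part were higher and 24 lower in ΔIkE120 cells unstimulated, and 38 and 27 stimulated. Without the 5 highest fragments of the IkE25 window, the ratios of the window were 0.14 and 0.44, of the same sign.

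Steps of 10 kb, counted from the distal end, gave 7 more. From 11505001 to 11515000, ΔIkE120 over wt was 2.03 unstimulated and -1.66 stimulated, and stimulation 1.11 in wt and -2.58 in ΔIkE120 cells, both -3.69 apart. The fragment at 11510496 held 85.5% of this step's reads in unstimulated ΔIkE120 and 76.6% in stimulated wt cells. In stimulated ΔIkE120 cells it had 76 of 1638 reads, so these pairs rested largely on this fragment. By number, 9 fragments were higher and 3 lower in ΔIkE120 than in wt cells unstimulated, and 6 and 3 stimulated. From 11515001 to 11525000 the pairs were 0.39 and -0.30, and 0.13 and -0.57, both -0.69 apart. By number, 10 fragments of this step were higher and 5 lower in ΔIkE120 cells unstimulated, and 9 and 6 stimulated. After stimulation, 6 were higher and 9 lower in either genotype, so by number the directions were not opposite. For ΔIkE120 over wt alone, the pair was -0.44 and 0.31 from 11535001 to 11545000 (0.75 apart). There 15 fragments were higher and 12 lower in ΔIkE120 cells unstimulated, and 18 and 7 stimulated. From 11545001 to 11555000 it was -0.23 and 0.89 (1.13 apart), with 14 higher and 10 lower unstimulated, and 14 and 9 stimulated. More fragments were thus higher than lower in both states, whatever the sign of the ratio. From 11555001 to 11565000 the pair was -0.07 and 0.16 (0.22 apart). In the last of these steps, the fragment at 11557745 held 44.9% of the reads in unstimulated wt and 29.7% in unstimulated ΔIkE120 cells. In stimulated wt and ΔIkE120 cells it held 23.3% and 23.6%. Of the step's 23 fragments, 15 were higher in ΔIkE120 cells unstimulated and 12 stimulated, so the opposite signs rested on this fragment. With 1 library per condition, the difference was not tested in any of these cases.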

How the results depend on the processing

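Log2 ratios are listed in the order DN3 over ES, ΔIkE120 over wt unstimulated, ΔIkE120 over wt stimulated, stimulation in wt, stimulation in ΔIkE120. For the interval, quantile normalization with a running mean of 21 fragments gave 0.10, 0.078, 0.25, -0.31 and -0.13. Reads within 1 Mb as denominator gave 0.43, -0.046 (reversed), 0.14, -0.32 and -0.13. Without the 5 highest fragments the values were 0.48, 0.10, 0.34, -0.37 and -0.13. Covered fragments in place of reads gave 0.46, -0.014 (reversed), -0.33 (reversed), 0.13 (reversed) and -0.18. For the IkE25 window, quantile normalization gave 0.16, -0.045, 0.36, -0.43 and -0.019, and the 1 Mb denominator 0.50, -0.26, 0.37, -0.64 and -0.013. Without its 5 highest fragments it gave 0.72, 0.14 (reversed), 0.44, -0.33 and -0.021. Covered fragments gave 0.47, -0.069, -0.39 (reversed) and 0.19 (reversed), and -0.13 for stimulation in ΔIkE120. A window of 5 kb gave 0.87, -0.29, 0.38, -0.85 and -0.18. As 46 to 48 of the 48 fragments of the window were covered in every library, its values for covered fragments are set by the covered fragments elsewhere and say nothing about the window. For the interval, covered fragments ran from 142 to 160, against 5495 to 10258 at least 15 kb from the bait. Its values by this measure are thus also set largely elsewhere, and its reversals there say little about the interval. Of these 45 alternatives 38 kept their direction, and 33 of the 35 that do not count covered fragments. Of 45 for the other sections 38 did. For 4930512M02Rik and stimulation in wt, -0.01 within counting error of 0, quantile normalization gave 0.15 and the 1 Mb denominator 0.23, and quantile normalization reversed the distal gap (ΔIkE120 over wt stimulated, -0.11), 4930512M02Rik (DN3 over ES, -0.10), the middle gap (stimulation in ΔIkE120, -0.016) and Gm11999 before the IkE25 window (DN3 over ES, -0.30). Without a filter on low values, fragments at least 2-fold apart numbered 65 instead of 43 (DN3 over ES) and 97 instead of 64 (stimulation in wt), and 13 of 15 alternatives for such counts stayed within 1.5 times. Without its highest fragment, an alternative chosen after seeing the data, the middle gap gave 0.73, -0.08, 0.42, -0.61 and -0.11 (reversed). The cause of the other shifts was not tested. No paired analysis was possible because each condition had 1 library.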

Other observations

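Fragments that overlap exons and have their midpoint within the gene had reads in each library. In 4930512M02Rik the exon fragment at 11490464 had 1617 reads in DN3, 3382 in ES, 5807 in unstimulated wt, 1574 in stimulated wt, 4254 in unstimulated ΔIkE120 and 6826 in stimulated ΔIkE120 cells. The exon fragment at 11523849 had 5087, 3812, 3507, 2406, 3814 and 4272 reads in the same order, and that at 11527188, which adjoins the empty fragment of the gene's start, 55, 198, 53, 8, 72 and 185. In Gm11999 the exon fragment at 11542454 had 2812, 3907, 4923, 1858, 8610 and 4791 reads, and that at 11553622 had 3055, 6223, 5203, 1353, 7184 and 1380. Also overlapping exons were 11524830 in 4930512M02Rik, with 1055, 1657, 1180, 3231, 5386 and 1849 reads, and 11553143 and 11553326 in Gm11999. The former of these in Gm11999 had 702, 3545, 2939, 1243, 2145 and 1658 reads, and the latter 4132, 4498, 2170, 1508, 4573 and 4091.

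Among fragments with a single-copy end at 50 bases, the 79 with a Csp6I site had a median of 329.8 RPM in DN3, 323 in ES, 109 in unstimulated wt, 189 in stimulated wt, 276 in unstimulated ΔIkE120 and 284 in stimulated ΔIkE120 cells. For the 106 without such a site the medians were 139.6, 62.8, 89.3, 62.6, 158 and 133 RPM. Their median lengths were 557 and 116.5 bases.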
